A study of Arabidopsis thaliana with 27 samples.

Results

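The first 15 min after a move from 17 to 27 °C were examined in 4 RNA-seq libraries of whole Arabidopsis thaliana seedlings, out of 27 libraries in the series. They were chosen by their labels: 2 libraries of seedlings kept at 17 °C and 2 of seedlings moved to 27 °C, all collected 15 min after the move and numbered 1 and 2 within each temperature. All plants were wild type of the Col-0 accession, grown at 17 °C in long days for 10 days, and the move was made at ZT1, 1 h after lights on. The controls had the same growth and the same collection time, and differed in being left at 17 °C. Of 33557 genes in each file, 21119 had enough counts to be tested. The series also holds 1 h and 4 h libraries of the same move, a move from 17 to 37 °C and a move from 22 to 27 °C; the labels describe growth at 17 °C only. Whether the 2 libraries at a temperature were separate cultures is not stated, and the p-values measure the spread between libraries, which may be technical.

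Plants sense warming partly through their proteins. When proteins begin to unfold, chaperones are drawn away from the heat shock factors of class A1, which are already present in the cell, and these factors bind heat shock elements, repeats of the bases GAA and TTC, in the promoters of chaperone genes. Small heat shock proteins hold unfolding proteins in solution, HSP70 and HSP90 refold them with the help of co-chaperones, and HSP101 pulls aggregates apart. HSFA2 and the HSFA7 factors are themselves targets of the class A1 factors and extend the response. Moderate warmth also promotes stem and petiole growth over hours and days, in which the factor PIF4 and the hormone auxin take part.

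The 4 libraries held 26.2 and 21.2 M counts at 17 °C and 17.5 and 13.6 M at 27 °C, in the order of their numbers. The 20 shoot markers (light harvesting and Rubisco) were all tested, 8 of 9 root markers passed the filter on low counts, and the 4 seed storage genes had between 0 and 4 counts in a library. Libraries numbered 1 had 1.25% (17 °C) and 1.54% (27 °C) of their counts in chloroplast genes, against 0.284% and 0.231% in those numbered 2. The 17 °C library numbered 1 stood apart in 28 genes that had at least 50 counts and were at least 4-fold above each of the other 3 libraries, against 5, 5 and 7 genes for the others. RD29B, a gene induced by drought and the hormone abscisic acid and chosen after its values were seen, had 5387 counts in it and 18, 87 and 39 in the other 3.

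At 15 min the seedlings at 27 °C had higher levels of many chaperone genes and of 4 heat shock factors. In the edgeR quasi-likelihood test, 46 genes were higher and 1 was lower (0.218% and 0.00474% of the genes tested), all of them in the same direction in both numbered pairs. Rises and falls are relative to the 17 °C libraries of the same time, not to the start of the move. All 46 rises exceeded 2-fold and 35 exceeded 4-fold. Of the 46, 26 were members of the gene lists used here and 20 were in no list. The libraries numbered 2 gave the larger rise for 44 of the 46, with a median log2 fold change of 3.63 against 2.52 in the libraries numbered 1.

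Same-numbered libraries of 1 time deviated together, so a second fit held a term for the number within each time. It called 137 genes higher and 47 lower (0.649% and 0.223%), with 43 genes called in both fits. The smallest rise it called was 0.71 on the log2 scale and the smallest fall was 0.73, in size. The count of the first fit rested on few libraries. It was 1 without the 17 °C library numbered 1, 2 without the 17 °C library numbered 2, 50 without the 27 °C library numbered 1, 8 without the 27 °C library numbered 2 and 1 without the 4 h libraries, which lend their spread. Changes in both pairs had a correlation across genes of 0.457 over all 21119 tested genes and of 0.633 over the 14267 genes with a mean log2 CPM (library-scaled counts) of at least 3, where genes are not independent replicates.

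**Figure D1:**
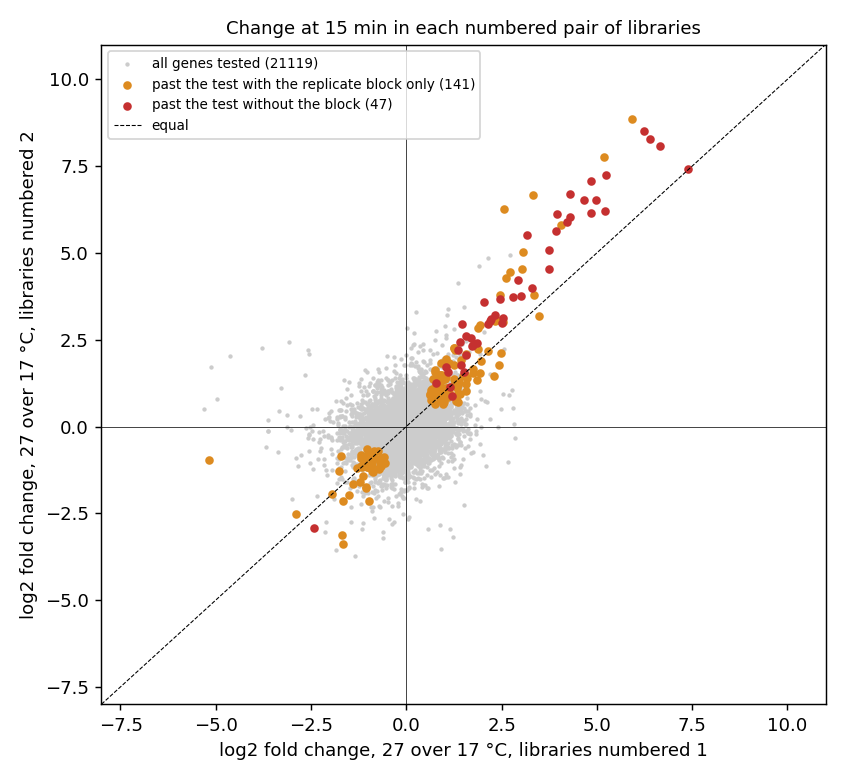
Log2 fold change, 27 over 17 °C at 15 min, in the libraries numbered 1 (x axis) and numbered 2 (y axis); each point is 1 of 21119 genes, red for the 47 past the test without the replicate block and orange for the 141 past it with the block only. Most red points lie above the dashed line of equal change, so the libraries numbered 2 gave the larger rise.

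Small heat shock proteins of the cytosol and peroxisome had the highest median change of the lists used here. Of 14 members, all tested, 6 were higher without the block and 9 with it, and the median log2 fold change was 4.53 against -0.003 over all genes. HSP17.6II (AT5G12020; chromosome 5, from 3882237 to 3882938, TAIR10) had 3 and 2 counts at 17 °C and 279 and 1021 at 27 °C. In log2 units it rose by 8.78 ± 1.23 (± gives the SE with n = 2 at each temperature; adjusted p of the edgeR test = 0.0455), a size that is uncertain with so few control counts. HSP17.8 had 62 and 40 counts at 17 °C and 3844 and 6869 at 27 °C. The 17 and 27 °C groups did not overlap, and it rose by 7.55 ± 0.78 (adjusted p = 0.0174).

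HSP17.6 (AT1G59860) rose by 7.55 ± 0.83, HSP17.6B by 4.53 ± 0.60 (adjusted p = 0.105 with the block), HSP17.4B by 4.53 ± 0.57 and HSP18.5 by 2.67 ± 0.41. HSP17.6A, HSP17.4, HSP17.6C and HSP15.7 passed the test with the block only, at 8.48, 7.80, 5.72 and 3.75 in the fit without it. The 4 members that passed neither test were HSP18.2 (0.85 ± 0.22), HSP21.7 (0.48 ± 0.33), HSP14.2 (0.01 ± 0.63) and HSP15.4 (-0.15 ± 0.79). Several of these genes share near-identical coding sequence, so counts may be split among copies.

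Of 5 small heat shock proteins of the organelles, 1 was higher without the block and 2 with it (median 2.32). The mitochondrial HSP23.5 had 48 and 25 counts at 17 °C and 857 and 2228 at 27 °C, and rose by 6.26 ± 0.83 (adjusted p = 0.0384). Its mitochondrial relative HSP23.6 had no count at 17 °C and 18 and 166 counts at 27 °C. Against a floor of 3 counts over the 17 °C group it was at least 105-fold higher, and it passed the test with the block only (adjusted p = 0.0129). HSP26.5, HSP22.0 and the chloroplast HSP21 passed neither test. HSP21 had 6 and 3 counts at 17 °C and 5 and 9 at 27 °C.

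**Figure D2:**
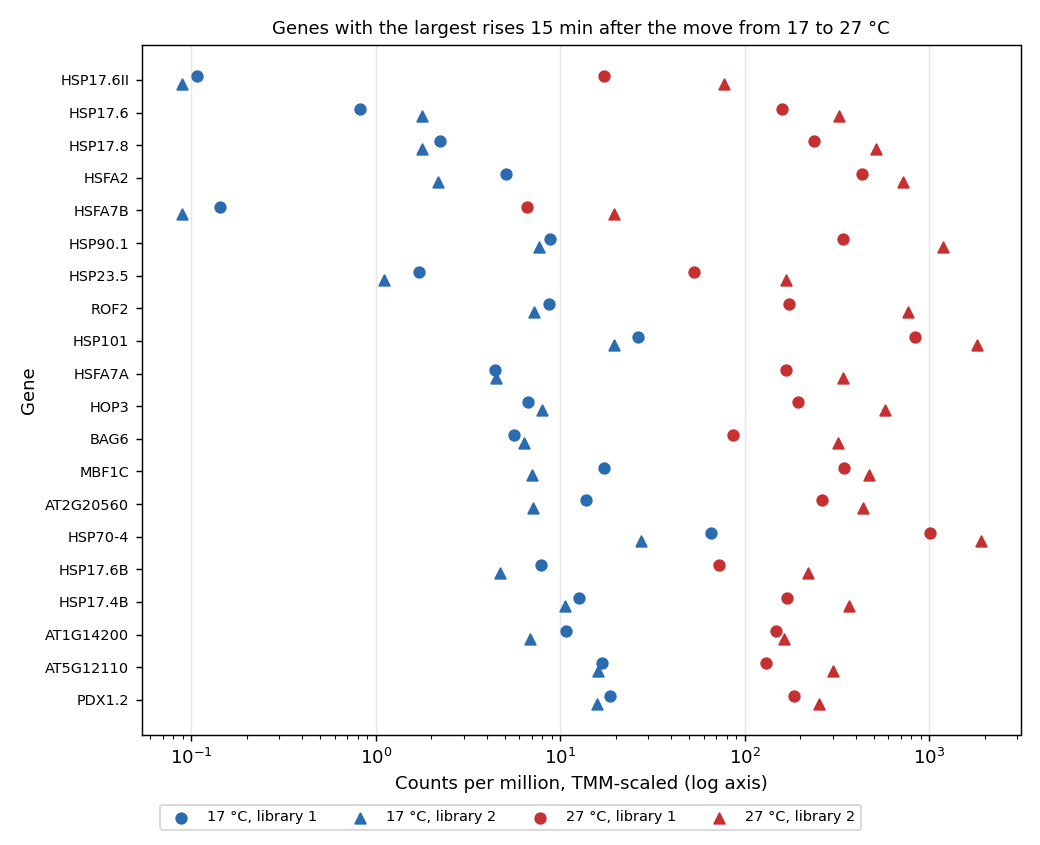
Library-scaled counts (CPM with TMM scaling, log axis) of the 20 genes with the largest rises past the test without the block, in the 2 libraries at 17 °C (blue) and the 2 at 27 °C (red); circles are libraries numbered 1 and triangles those numbered 2. In every gene shown both red points lie to the right of both blue points, and the red triangles lie to the right of the red circles.

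Of the HSP100 family and HSA32, 2 of 4 tested members were higher without the block and 1 with it (median 2.46). HSP101, the disaggregase (AT1G74310; chromosome 1, from 27936508 to 27940190), had 738 and 442 counts at 17 °C and 13541 and 24164 at 27 °C, a rise of 5.85 ± 0.59 (adjusted p = 0.0165). The mitochondrial CLPB4 rose by 2.37 ± 0.38 (adjusted p = 0.0597 with the block), whereas the chloroplast CLPB3 was at 0.57 ± 0.25 and passed neither test. In the HSP70 family, 2 of 12 tested members were higher without the block and 6 with it (median 1.00). HSP70-4 (AT3G12580; chromosome 3, from 3991261 to 3993792), an inducible cytosolic member, had 1820 and 616 counts at 17 °C and 16273 and 25193 at 27 °C, and rose by 4.97 ± 0.54 (adjusted p = 0.0165). HSP70-2 rose by 2.04 ± 0.28. HSC70-3, MTHSC70-2, HSP70-15 and CPHSC70-2 passed only with the block, at 1.83, 1.82, 1.23 and 1.08 in the fit without it. The abundant HSC70-1 was at 0.92 ± 0.26 and passed neither test.

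In the HSP90 family, 3 of 6 members were higher in both fits (median 1.43). The stress-induced HSP90.1 (AT5G52640; chromosome 5, from 21352399 to 21355361) had 246 and 173 counts at 17 °C and 5486 and 15697 at 27 °C, and rose by 6.52 ± 0.66 (adjusted p = 0.0165). HSP90.2 rose by 2.16 ± 0.30 and HSP90.3 by 1.82 ± 0.25. These 2 are near-identical to HSP90.4 (0.65 ± 0.18), so their counts are uncertain. The mitochondrial HSP90.6 and the chloroplast HSP90.5 were at 1.04 ± 0.29 and 0.90 ± 0.19 and passed neither test.

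Co-chaperones, which hand clients between HSP70 and HSP90 or start the HSP70 cycle, were higher in 5 of 16 cases without the block and 7 with it (median 1.18). The immunophilin ROF2 had 241 and 162 counts at 17 °C and 2800 and 10166 at 27 °C, and rose by 5.89 ± 0.67 (adjusted p = 0.0186). HOP3, an organiser of the HSP70 and HSP90 pair, had 186 and 178 counts at 17 °C and 3143 and 7601 at 27 °C, and rose by 5.72 ± 0.56 (adjusted p = 0.0165). Its paralogues HOP2 (0.92 ± 0.24) and HOP1 (0.04 ± 0.14) passed neither test. BAG6 rose by 5.08 ± 0.72, the DnaJ protein AT2G20560 by 5.04 ± 0.72 and the immunophilin ROF1 by 2.19 ± 0.33. FES1A, J2 and AT4G28480 passed only with the block, at 3.88, 1.25 and 0.88 in the fit without it. AT2G20560 lost its call with the block (adjusted p = 0.0593).

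Summed over all 60 listed members of the chaperone and co-chaperone families above, the deposited TPM (a level scaled by gene length and library total) was 4207 and 3934 at 17 °C and 9486 and 16420 at 27 °C. That is 0.421% and 0.393% of all transcripts at 17 °C and 0.949% and 1.64% at 27 °C. On the same scale HSP90.2 was at 309 and 284 TPM at 17 °C and 911 and 1390 at 27 °C, above HSP101 at 9.87 and 6.92 and at 263 and 611. Both stayed below the constitutive HSC70-1, which was at 907 and 915 TPM at 17 °C and 1324 and 1622 at 27 °C. In RNA from whole seedlings a response in some cells and a smaller response in all cells cannot be told apart.

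**Figure D3:**
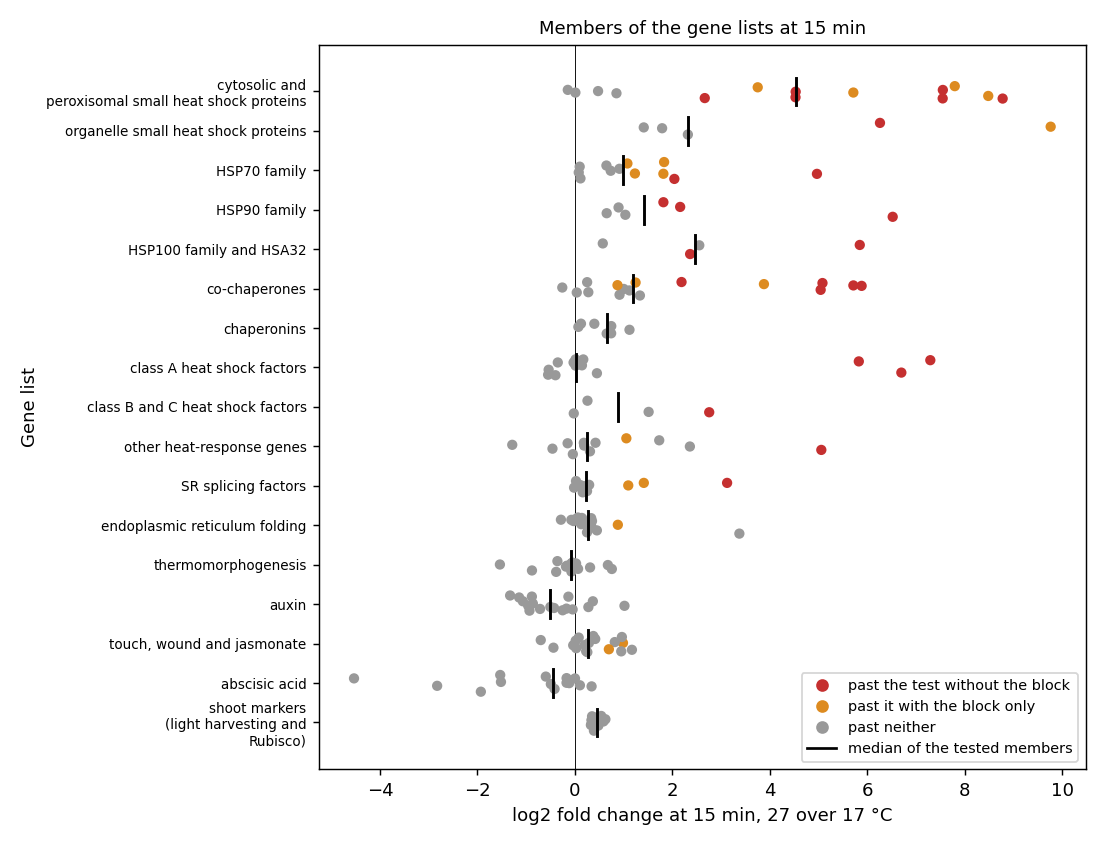
Log2 fold change at 15 min, 27 over 17 °C, of each tested member of 17 gene lists (points; red past the test without the block, orange past it with the block only, grey past neither), with the median of each list as a black line. Red points reach 8.78 in the small heat shock proteins, and 3 class A factors lie apart from the other members of their list. The plotted lists from endoplasmic reticulum folding downwards hold no red point.

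Of 13 tested class A members 3 were higher in both fits, and the median of the list was 0.02. HSFA2 (AT2G26150; chromosome 2, from 11135682 to 11137396) had 141 and 49 counts at 17 °C and 6979 and 9518 at 27 °C. Both 27 °C libraries were far above both controls, and the rise was 7.29 ± 0.88 (adjusted p = 0.0251). HSFA7A had 124 and 101 counts at 17 °C and 2716 and 4521 at 27 °C, and rose by 5.83 ± 0.84 (adjusted p = 0.0476). HSFA7B had 4 and 2 counts at 17 °C and 107 and 261 at 27 °C, and rose by 6.70 ± 0.87 (adjusted p = 0.0234). In TPM, HSFA2 (318 and 559 at 27 °C) stood above HSFA7A (166 and 366), and both stood above HSFA7B (5.46 and 20.7).

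The class A1 factors, which start the response, did not pass either test. HSFA1A was at 0.01 ± 0.25, HSFA1B at -0.03 ± 0.22, HSFA1D at 0.15 ± 0.18 and HSFA1E at -0.40 ± 0.32. Their levels lay between 3.83 and 12.2 TPM in all 4 libraries. Of the class B and C genes HSFB2B, a repressor of the heat response, was the 1 called of 4 tested. It had 516 and 329 counts at 17 °C and 1726 and 1560 at 27 °C, and rose by 2.76 ± 0.20. Its adjusted p of 0.00157 was the lowest of the comparison, and it stayed past the test in 13 of the 14 alternative settings run (log2 fold change from 2.61 to 2.93). HSFB2A was at 1.51 ± 0.35 and passed neither test. HSFB1 was listed at 0 in all 27 libraries, which may come from the counting or the annotation as well as from its expression and was not settled, HSFA9 at 0 in these 4, and HSFA6A and HSFC1 had too few counts to be tested.

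Heat shock elements were searched in the 250 bases before the start of each gene (RefSeq annotation and genome, assembly TAIR10.1). Distances below are to the RefSeq start, which can differ from the deposited coordinates printed for a gene. For HSFA2 the window ended at 11135623, whereas the deposited start was 11135682. A run of 3 alternating units, GAANNTTCNNGAA or its reverse complement TTCNNGAANNTTC, was present before 0.42% of 20930 tested genes. It was present before 9 of the 137 genes higher with the block (6.57%), before 3 of the 46 higher without it (6.52%) and before 0 of the 47 lower with it. A pair of units, GAANNTTC or TTCNNGAA, which every 3-unit run contains, was present before 15.69% of the tested genes, 31.39% of the 137, 21.74% of the 46 and 17.02% of the 47. The G-box CACGTG, a palindrome, was present before 7.31% of the tested genes and 8.03% of the 137. Among the genes with a run, HSP17.4, HSP17.6C, GOLS1, AT3G05320 and AT5G04410 passed the test with the block only. All stretches with a run before a gene higher in either fit are shown where they lie outside any annotated exon (8 genes). Each is given 5′ to 3′ on the strand of its gene with 15 bases on either side where the window allows, and the capitals mark the 3-unit elements, 2 each for HSFA7A and HSP17.4 and 1 for the others.
HSFA2 (chr2:11135521-11135563, plus strand, element from 88 bases before the start): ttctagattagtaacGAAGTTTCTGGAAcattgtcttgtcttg
HSFA7A (chr3:19264934-19265026, plus strand, from 192 and 142 bases before): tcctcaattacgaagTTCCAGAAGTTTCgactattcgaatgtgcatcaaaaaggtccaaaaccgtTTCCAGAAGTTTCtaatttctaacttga
HSFA7B (chr3:23399064-23399106, plus strand, from 157 bases before): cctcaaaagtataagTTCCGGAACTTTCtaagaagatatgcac
HSP17.4 (chr3:16984868-16984981, minus strand, from 99 and 18 bases before): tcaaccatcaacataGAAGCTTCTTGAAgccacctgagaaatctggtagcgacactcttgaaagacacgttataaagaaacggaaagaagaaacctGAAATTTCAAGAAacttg
HSP17.6C (chr1:19980231-19980273, plus strand, from 53 bases before): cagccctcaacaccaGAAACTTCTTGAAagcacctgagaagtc
GOLS1 (chr2:19370551-19370593, minus strand, from 100 bases before): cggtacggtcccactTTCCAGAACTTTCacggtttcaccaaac
AT3G05320 (chr3:1515711-1515753, minus strand, from 170 bases before): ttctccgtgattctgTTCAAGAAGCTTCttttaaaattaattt
AT5G04410 (chr5:1243573-1243615, plus strand, from 96 bases before): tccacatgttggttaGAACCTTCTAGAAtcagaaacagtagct

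The 3 class A factors that rose all hold such a run, and HSFA7A holds 2. AT2G27580, an A20/AN1-like zinc finger protein, was the ninth gene, and its run lies in an exon of a neighbouring gene. A match is a description of the letters, and a window without one says nothing of binding. HSP17.6II, HSP23.6, HSP17.6, HSP17.8, HSP101, HSP90.1, HSP70-4, ROF2, HOP3 and MBF1C had no pair of units in theirs. For several genes the RefSeq start lies away from the start in the deposited coordinates. The HSP90.1 window ended at 21352556, past its deposited start (21352399). That of HSP101, on the minus strand, began at 27940370, away from its deposited end (27940190). Bases next to the deposited start were thus not always searched, and these absences and those by family depend on the annotation. By family, 0 of 13 HSP70 and 0 of 6 HSP90 members held a run or a pair. A run was present before 0 of 17 co-chaperones and a pair before 5. For small heat shock proteins these were 2 and 4 of 14 in the cytosol and peroxisome, and 0 and 3 of 5 in the organelles.

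Beyond chaperones, the coactivator MBF1C had 481 and 159 counts at 17 °C and 5542 and 6247 at 27 °C, and rose by 5.06 ± 0.75 (adjusted p = 0.0476, and 0.0536 with the block). It overlaps AT3G24503 on the genome, as HSP101, HSFB2B, HSP17.4, HSP70-15, CPHSC70-2, AT2G20560, PDX1.2, GTE2 and GOLS1 overlap neighbours of their own, and reads from the overlaps may be counted for either gene. Of 11 SR splicing factors, 1 rose without the block and 3 with it. SR45A had 1693 and 1050 counts at 17 °C and 5440 and 7974 at 27 °C, and rose by 3.12 ± 0.40 (adjusted p = 0.0234). SR30 and SCL33 passed with the block only, at 1.37 and 1.08 in that fit. The RING/U-box protein AT1G14200 rose by 4.13 ± 0.51, the elongation factor 1-beta subunit AT5G12110 by 3.71 ± 0.42 and PDX1.2, which takes part in vitamin B6 synthesis, by 3.66 ± 0.53.

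RVE7, a MYB-like relative of the morning clock genes, was the 1 of 10 morning clock members to rise. It had 378 and 393 counts at 17 °C and 1271 and 2028 at 27 °C, a rise of 2.90 ± 0.44 (adjusted p = 0.0415). AT3G10113 is near-identical to it and moved by 2.88 ± 0.41, so both may share counts. CCA1, a core morning clock gene, was at -0.13 ± 0.15.

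Members of lists that passed no test, and the following genes past the test and in no list, were chosen after their values were seen. AGO2, which acts in small RNA silencing, had 620 and 432 counts at 17 °C and 928 and 1184 at 27 °C, and rose by 1.82 ± 0.22 (adjusted p = 0.0186). The bromodomain factor GTE2 rose by 1.55 ± 0.19, the hikeshi-like protein AT1G66080 by 3.39 ± 0.42, and AT3G12050, whose Aha1 domain is that of HSP90 activators, by 2.18 ± 0.33. AT1G56140, a receptor kinase with leucine-rich repeats, rose by 1.15 ± 0.17.

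No tested member of the thermomorphogenesis, auxin or H2A.Z and SWR1 lists was called in either fit at 15 min. Of 15 thermomorphogenesis genes none was called in either fit. In edgeR 1 was at an unadjusted p under 0.05 and was lower, and DESeq2 called 0. PIF4 had 564 and 571 counts at 17 °C and 370 and 666 at 27 °C, so its pairs differed widely. It was at 0.68 ± 0.32 and moved between 0.01 and 1.13 over the alternatives. Auxin genes had a median of -0.50 over 17 tested members, of which edgeR called 0 (2 at an unadjusted p under 0.05, DESeq2 0), and 8 had both 27 °C libraries below both controls, where 21.9% of all genes did. H2A.Z and SWR1 genes were called in 0 of 7 cases, with none at an unadjusted p under 0.05 and none by DESeq2, at a median of -0.04.

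Endoplasmic reticulum folding genes had a median of 0.26 over 21 members. None was called without the block (2 at an unadjusted p under 0.05, DESeq2 2). With the block the membrane-bound stress factor BZIP28 passed, at 0.89 ± 0.17 in that fit. The co-chaperone ERDJ3A had 377 and 138 counts at 17 °C and 821 and 2050 at 27 °C but passed neither test (3.38 ± 0.58, adjusted p = 0.0845 and 0.253). Chaperonins were at a median of 0.65 with 0 of 7 called (3 at an unadjusted p under 0.05, DESeq2 2). The 20 shoot markers were at a median of 0.45, and all had both 27 °C libraries above both controls, where 20.5% of all genes did. None of the 20 was at an unadjusted p under 0.05, and DESeq2 called 0. That separation was in CPM. Their summed TPM overlapped between the groups, at 34152 and 42526 at 17 °C and 41267 and 49418 at 27 °C. The part of this shift in the other results was not tested.

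PROPEP3 was the 1 gene lower in the fit without the block. It encodes the precursor of a peptide that marks tissue damage and is read by the receptors PEPR1 and PEPR2. It had 127 and 109 counts at 17 °C and 12 and 7 at 27 °C (chromosome 5, from 25939574 to 25940059), and was lower at 27 °C, at -2.86 ± 0.44 on the log2 scale (adjusted p = 0.0407). The groups at 17 and 27 °C did not overlap. With scaling over all 27 libraries PROPEP3 was at 0.818 CPM in the single 0 min library, at 4.29 and 4.63 in the 15 min controls and at 0.703 and 0.503 at 27 °C. The 27 °C level was thus near that at 0 min, and the controls were above it. In the other moves PROPEP3 went from 0.405 at 0 min to 3.62 at 15 min in the 17 °C control and from 0.28 to 1.97 in the 22 °C control, with 1 library each. PROPEP2 was at -1.93 ± 0.45 and PROPEP1 at -0.54 ± 0.27, and neither passed, nor did PEPR1 (0.36 ± 0.19) or PEPR2 (0.06 ± 0.32).

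The other 46 of the 47 genes lower with the block were called with it only, and 15 of them met the rule for naming. SPX1, a repressor in the response to phosphate, had 1962 and 4226 counts at 17 °C and 349 and 286 at 27 °C, and was at -2.41 (adjusted p = 0.0219 with the block, 0.258 without). G3Pp1, annotated as a putative glycerol-3-phosphate transporter, had 5369 and 6676 counts at 17 °C and 1506 and 1165 at 27 °C, and was at -1.40 (0.014 and 0.108). With the block BBX29, a B-box zinc finger protein, was at -1.54, the kinase AGC2-1 at -1.40 and PID, a kinase that steers auxin transport, at -1.19. The ethylene response factor ERF5 was at -1.49 and the protein phosphatase AT2G30020 at -1.39.

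The single 0 min library puts these values beside the starting level. Of the 16 genes (PROPEP3 and the 15), 13 had both 15 min controls above the 0 min library. At 27 °C, 5 had both libraries above it, 8 had both below it and 3 had 1 on either side. AT2G30020 was at 10.2 CPM at 0 min, at 131 and 62.1 in the 15 min controls and at 62.9 and 18.545 at 27 °C. ORA47 was at 0.273 at 0 min, at 50.2 and 9.93 in the controls and at 15.353 and 5.46 at 27 °C. Both genes were above the start at either temperature, and less so at 27 °C. ERF5 was at 5.29 at 0 min, at 30.3 and 16.9 in the controls and at 15.5 and 3.74 at 27 °C. SPX1 was at 114 at 0 min, between the controls at 66.2 and 179, and at 20.5 and 20.6 at 27 °C. SPX1, BBX29 and G3Pp1 were thus below the start at 27 °C, with controls on both sides of it.

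In the fit without the block, these falls were also read without the 17 °C library numbered 1. In 13 of the 15 that library was above the other control, in 10 by more than 1.5-fold. Without it the fall was smaller in 13 of the 15, which follows from leaving out the higher of 2 controls. GPT2, a plastid sugar phosphate translocator, had 1831 and 178 counts at 17 °C and 274 and 26 at 27 °C, and the block gave -1.97 (adjusted p = 0.0021). ORA47, a factor of jasmonate synthesis, had 1489 and 234 counts at 17 °C and 262 and 76 at 27 °C, at -1.34. In the fit without the block, leaving that library out moved 5 of the 15 by over 1.5-fold. Both 27 °C libraries were then set against the 17 °C library numbered 2 alone. GPT2 was then at 0.25 ± 1.03, ORA47 at 0.07 ± 0.65, PID at -0.44 ± 0.47, AT2G30020 at -0.61 ± 0.52 and AT5G66650 at -0.39 ± 0.54. By contrast SPX1 was at -3.13 ± 0.51 and G3Pp1 at -1.73 ± 0.29. The pair numbered 2 does not hold the 17 °C library numbered 1, and all 5 genes were lower at 27 °C in it. There GPT2 was at -1.95, ORA47 at -0.85, PID at -1.14, AT2G30020 at -1.74 and AT5G66650 at -1.17. The abscisic acid list was higher in that library than in the other control by a median of 1.44 on the log2 scale, and in the same 27 °C pair by 0.76. None of its 14 tested members was called in either fit (1 at an unadjusted p under 0.05, DESeq2 0).

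**Figure D4:**
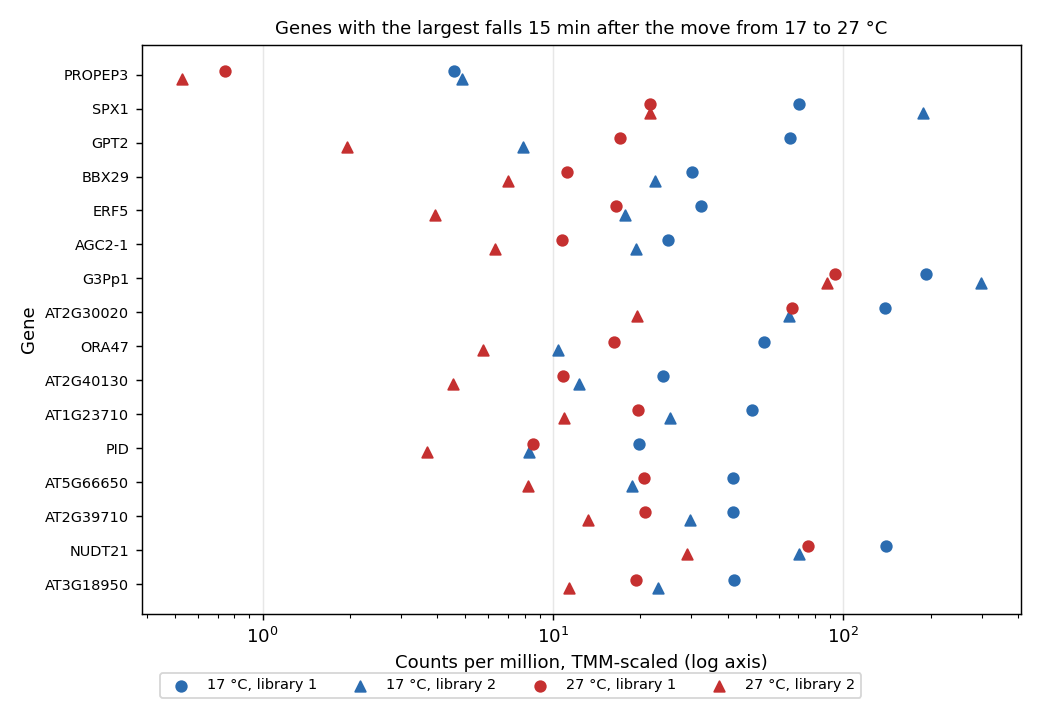
Library-scaled counts (CPM with TMM scaling, log axis) of PROPEP3 and the 15 named genes lower with the block, in the 2 libraries at 17 °C (blue) and the 2 at 27 °C (red); circles are libraries numbered 1 and triangles those numbered 2. Within each number the red point lies to the left of the blue one, and in many genes the blue circle stands alone on the right.

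The same genes were then followed at 1 h and 4 h, in libraries with their own controls. Of the 46 genes higher at 15 min, 43 were above 0 at 1 h and 42 at 4 h, where 49.4% and 50.4% of all tested genes were. Their median log2 fold change was 3.03 at 15 min, 2.16 at 1 h and 0.94 at 4 h, and since they were chosen at 15 min the first value is favoured. At 1 h 23 of them passed the test without the block and at 4 h 0 did, where 0.45% and 0.0284% of all genes did so as rises. With the block 34 passed as rises at 1 h and 11 at 4 h, and 1 passed as a fall at 1 h. In that fit 7.82% of all genes passed at 1 h (3.32% higher, 4.5% lower) and 2.58% at 4 h (1.05% higher). Of the 46, 46 were above 0 in the move from 22 to 27 °C and 43 in the move from 17 to 37 °C, with medians of 2.63 and 4.80. The move to 37 °C had 41 of them past the test as rises and 0 as falls (1.47% and 0.98% of all genes). Each of those moves has a single library per temperature at 15 min, which the test assumes to vary like the duplicated groups.

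Tests of the differences between times gave 0 genes for 15 min against 1 h in edgeR without the block (1285 at an unadjusted p under 0.05, DESeq2 140), and 0 against 4 h (1637, DESeq2 133). With the block, the effect at 15 min was above that at 1 h for 184 genes and below it for 38 (0.871% and 0.18%, 1.05% in all), and above that at 4 h for 58 and below it for 11 (0.275% and 0.0521%). Without the block HSFA7A was higher by 5.83 at 15 min, 2.17 at 1 h and 0.44 at 4 h. Its effect differed from both later times in the edgeR test with the block (adjusted p = 0.0187 and 0.0159). It did not without the block (0.546 and 0.383). Without the block HSP17.8 was higher by 7.55, 8.49 and 3.14. Its effect differed from that at 4 h with the block (adjusted p = 0.0331) but not without it (0.429). Against 1 h it passed no test (0.517 with the block). HSFA2, at 7.29, 5.65 and 2.24, passed neither test of a difference. The effects on HSP70-2, HSC70-3 and CPHSC70-2 were larger at 15 min than at 4 h with the block, when HSC70-3 was at -0.77 and CPHSC70-2 at -0.64.

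At 15 min the median of touch, wound and jasmonate genes was 0.27 over 18 members, with LOX4 and OPR3, enzymes of jasmonate synthesis, past the test with the block at 1.02 and 0.71. At 1 h the median was -1.17. For 5 of the 18 the effect at 15 min was above that at 1 h with the block: LOX4, OPR3, LOX3 and the jasmonate repressors JAZ10 and JAZ5. LOX4 had 1678 and 663 counts at 17 °C and 1834 and 854 at 27 °C, and was at -1.82 at 1 h. These genes were also higher in libraries numbered 1 than in those numbered 2, by a median of 0.58 at 17 °C and 0.82 at 27 °C, and the part of this in the difference was not tested. SARD1, a factor that promotes salicylic acid synthesis, was at 2.02 at 15 min, -1.28 at 1 h and -2.10 at 4 h without the block. None of these passed that edgeR test (adjusted p = 0.211, 0.257 and 0.211). With the block it passed at 15 min (0.0192) but not at 1 h or 4 h (0.0734 and 0.0509). DDF1, a transcription factor of the CBF and DREB family, was at 1.63 at 15 min and -3.97 at 1 h without the block. At 15 min DDF1 passed the test with the block only.

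**Figure D5:**
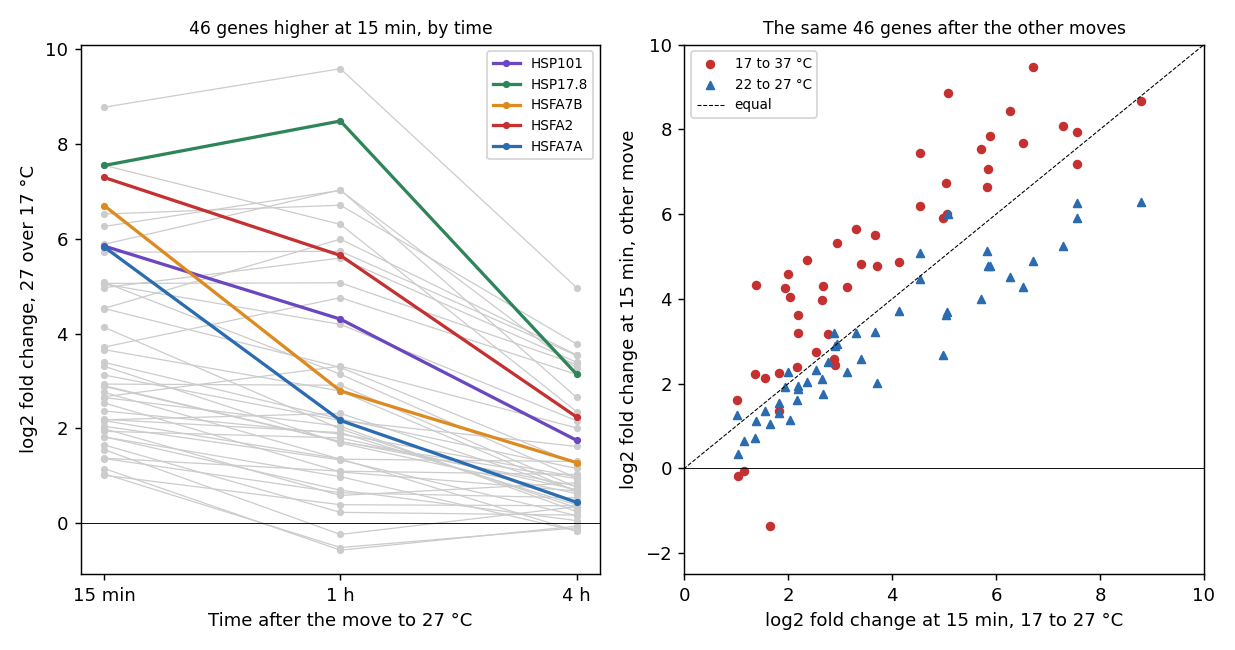
Left, log2 fold change of the 46 genes higher at 15 min (lines) at 15 min, 1 h and 4 h after the move to 27 °C, with 5 genes in colour. Right, the 15 min effect of the same genes (x axis) against their effect at 15 min of the move from 17 to 37 °C (red circles) and from 22 to 27 °C (blue triangles); most circles lie above the dashed line of equal effect.

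Set against the move to 37 °C at the same time, the signed 27 °C effect was above that of 37 °C for 22 genes and below it for 67 (0.0989% and 0.301% of 22239 genes). All 22 were below 0 at 37 °C, and 21 of them changed more in size at 37 °C than at 27 °C. Of the 67, 63 were tested at 15 min in the 12 libraries, and all 63 were above 0 at 37 °C and changed more in size there. Of the listed genes 6 were among the 67 and 0 among the 22. HSP21, a chloroplast chaperone, was at 1.41 ± 0.80 at 27 °C and 9.04 at 37 °C. The ascorbate peroxidase APX2 had 7 and 8 counts at 17 °C and 9 and 20 at 27 °C, at 1.73 ± 0.63 and 8.92. HSP70-5 was at 0.74 ± 0.59 and 7.77, HSP18.2 at 0.85 ± 0.22 and 6.83, the galactinol synthase GOLS1 at 1.06 ± 0.41 and 5.61, and CLPB3 at 0.57 ± 0.25 and 3.34. For HSFA2, HSFA7A, HSP17.8 and HSP101 no difference passed the test: they were at 7.29, 5.83, 7.55 and 5.85 at 27 °C and at 8.07, 6.64, 7.19 and 7.07 at 37 °C. Their levels were not tested for a difference, and the 37 °C move has 1 library per temperature at 15 min. With scaling over all 27 libraries they were at 1724, 1071, 1160 and 5022 CPM at 37 °C, and at 6.40, 10.7, 7.94 and 37.3 in its control. The higher 27 °C library had 684, 325, 494 and 1737, and the higher of its controls 4.76, 4.29, 2.09 and 24.9. The count of 89 genes fell to between 41 and 63 when 1 of the 4 libraries was left out. Against the move from 22 to 27 °C edgeR called 0 differences (346 at an unadjusted p under 0.05, with no other tool run on them).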

How the data were processed

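The deposited files hold, per the file headers, a raw read count, an FPKM and a TPM for each gene. FastQC, Trimmomatic, TopHat, Picard and the TAIR10 build are named in the submitters' processing notes. Tool versions, the counter and its strand setting: not given in the sources used here. Overlapping genes are therefore uncertain. Per the labels' protocols, stranded and unstranded kits and 2 sequencing centres were used, without naming the libraries. The authors' FPKM entered no test, and the deposited TPM gave levels per length.

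Low counts were removed (filterByExpr), and TMM-scaled counts were tested two-sided with edgeR 4.0.16 (robust quasi-likelihood, R 4.3.3) over the 12 libraries of 15 min, 1 h and 4 h, with Benjamini-Hochberg adjustment at 0.05 (6 residual degrees of freedom). Same-numbered libraries correlated in their deviations at 0.448 to 0.572 within a time (3 pairs) and at -0.076 to 0.409 across times (12 pairs), and the numbers were taken as pairing libraries of 1 time. The fit with that block had 3 residual degrees of freedom. Moves were compared over all 27 libraries. An SE is the log2 fold change divided by the square root of F. On simulated counts for the 15 min comparison (20889 genes), 4-fold changes were called in 90% of 100 genes and 2-fold changes in 16% of 100 (95% and 21% with the block). Every gene had the same simulated spread, near the common value of the fit without the block (0.243 as a coefficient of variation). The fit with the block had 0.144, so its simulated shares are for a larger spread than its own. The changed genes were drawn from those with higher mean counts. Alternatives included DESeq2 1.42.0. Symbols and promoters came from RefSeq (32810 genes matched). The genes and 31 lists (324 members) were chosen with earlier results of these data known. Named were the 20 highest and up to 10 lowest calls, the 10 highest and 15 lowest with the block and a mean log2 CPM of at least 3, up to 6 called members of a list, the 5 highest and lowest differences between times or moves, and HSFA2, HSP70-4, HSP101, PIF4 and CCA1. Duplicate libraries differed beyond counting error.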

Additional observations from a re-analysis of the deposited data

Results flagged for a closer look

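The following genes are given because their effect at 15 min differed between moves or times by a test of the difference itself (edgeR, Benjamini-Hochberg adjusted). Values are signed differences of log2 fold changes, which can come from a rise in one or a fall in the other, and no cause was tested.

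The effect of 27 °C minus that of 37 °C at 15 min was 3.74 for AT4G27570, 3.58 for GLL22, 3.44 for AT5G14350, 3.40 for RPF3 and 3.14 for BGLU33. These 5 lay between -0.65 and 0.43 at 27 °C and between -4.05 and -3.31 at 37 °C, so the larger change was the lower level at 37 °C. The difference was negative, with values of -2.76 for CLPB3, -4.54 for GOLS1, -5.97 for HSP18.2, -6.26 for AT3G24000, -7.03 for HSP70-5, -7.20 for APX2, -7.65 for HSP21 and -7.79 for AT5G15430. The 37 °C move has 1 library per temperature.

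With the replicate block, the effect at 15 min minus that at 1 h was 5.96 for AT3G44870, 5.64 for DDF1, 4.58 for AT1G63040, 3.75 for HSFA7A, 3.70 for AT3G01830, 3.29 for SARD1, 2.84 for LOX4, 2.31 for GPT2, 1.48 for OPR3 and 1.42 for HSFB2B. AT3G44870 (0.54 at 15 min, -5.43 at 1 h) and AT3G01830 (0.07, -3.63) were mainly lower at 1 h, DDF1 (1.62, -4.02) was higher and then lower, and for GPT2 (-1.97, -4.29) both values were negative. The difference was -1.50 for BBX32, -2.65 for AT2G37750, -2.68 for RNS1, -2.70 for WRKY75, -2.85 for GRXS13 and -5.36 for AT2G34610.

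Against 4 h, with the block, the difference was 5.36 for HSFA7A, 5.30 for AT1G05675, 4.197 for HSP17.8, 3.97 for SARD1, 3.92 for DFR, 2.59 for HSC70-3, 2.19 for LOX4, 2.13 for RVE7, 1.88 for HSP70-2 and 1.72 for CPHSC70-2. AT1G05675 was at 0.30 at 15 min and -5.01 at 4 h, so its larger change was the lower level at 4 h. The difference was -1.93 for G3Pp1, -1.95 for BBX32, -2.19 for NF-YA7, -2.23 for RGL2 and -6.18 for AT2G37870.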

How the results depend on the processing

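The 47 genes called at 15 min became 159 with DESeq2, 0 with the 4 libraries alone and 1 without the 4 h libraries, and lay between 1 and 50 when 1 library was left out. The numbers were taken as pairing the libraries within a time, and the replicate block within each time gave 184. With that block, alternatives chosen after seeing the data gave 333 without the 1 h libraries, 97 without the 4 h libraries, 338 without both 1 h libraries numbered 1, 183 with RLE size factors, 186 without organelle genes and 288 with DESeq2. The other settings of the fit without it gave 36 to 53. Calls among list members, 27 in all, were 53 with DESeq2, 43 with the block, 0 with the 4 libraries alone, 1 without the 4 h libraries and 1 to 30 with 1 library left out.

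The 0 differences from 1 h became 140 with DESeq2, 222 with the block within each time and 13 with a replicate block shared by the times. The 0 differences from 4 h became 133, 69 and 1 in the same order, and 1 without the low-count filter. The 89 differences from 37 °C became 195 with the shared replicate block and 41 to 63 with 1 library left out. The 0 differences from the 22 to 27 °C move stayed at 0 in the alternatives run. In the fit without the block and with 1 library left out, GPT2 ranged from -4.23 to 0.25 and ORA47 from -2.48 to 0.067. Both changed sign without the 17 °C library numbered 1, but were at -1.95 and -0.85 in the pair numbered 2. All 62 named genes kept direction and call with RLE size factors and with the stricter filter. The cause of these changes was not tested. With 2 libraries per temperature, 2-fold changes were rarely called in data simulated near the spread of the fit without the block.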
